A study of Mus musculus with 12 samples.

Results

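Interferon-stimulated genes are the genes that cells switch on when they sense interferon, and 39 of them, without the families of interferon-inducible GTPases known as IRG and GBP, were followed here through sorted mouse CD4 T cells. The members were taken by symbol from a fixed list, and no threshold on measured values was part of the rule. All 39 were found by Ensembl identifier among the 21839 genes of the count table, and all 39 passed the filter on low counts. The list name leaves out GTPases, but its member Ifi47 is itself an IRG GTPase and its members Mx1 and Mx2 encode dynamin-like GTPases.

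Interferons bind receptors that start JAK kinases. Type I interferon drives a complex that holds STAT2 and IRF9 and binds a DNA element called the ISRE. Interferon gamma acts through a shorter element called GAS. The genes switched on this way encode proteins that find viral nucleic acid, block viral copying and feed back on the pathway, and resting T cells keep many of them at a low tonic level.

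The study compared the RNA of regulatory T cells from mice with Atg5 deleted in CD11c-expressing cells with that of littermates. All mice were C57BL/6 and carried Atg5, a gene needed for autophagy, the digestion of a cell's own contents, flanked by loxP sites on both alleles (Atg5 flox/flox). Mice called TG also carried 1 copy of a Cre transgene under the CD11c promoter (CD11c Cre +/-), which is active mainly in dendritic cells, and mice called WT did not (CD11c Cre -/-). Spleens and lymph nodes (brachial, cervical, inguinal) were the source, and cells were sorted as CD4+ CD62L+ with CD25 High or CD25 Low, which gave 4 groups of 3 libraries each, named WT High, WT Low, TG High and TG Low. The labels number the libraries 1 to 3 in each group without saying what a number marks, nor whether a library is 1 mouse or a pool, so p-values measure the spread between these libraries. Age is not in the labels.

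Total counts ran from 6767828, in TG High 2, to 23942479, and the 39 genes held 0.621% to 0.770% of them. Foxp3, the defining factor of regulatory T cells, ranged from 1412 to 1662 CPM (counts scaled to library size) in the High gate and from 983 to 1193 CPM in the Low gate. Atg5 was read at 32.0 to 41.5 CPM in the 12 libraries, which does not check the genotype labels, since Cre is directed at other cells. The 4 libraries numbered 1 stood apart. Their 15 cell cycle markers summed to 687 to 1093 CPM against 311 to 401 CPM in the other 8, and their 12 B cell markers to 741 to 1152 CPM against 360 to 605 CPM. Itgax, which encodes CD11c, ranged from 0 to 1.79 CPM.

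To show the letters in which interferon elements are looked for, upstream sequence is printed for 7 genes and for Irf1. The 7 (Ifit1, Ifit3, Isg15, Oas3, Rsad2, Cmpk2 and Isg20) are those with a promoter sequence among 8 members called below. That call is for a genotype difference that varies with replicate number, and Irf1 was not among the 8. Each stretch covers bases -160 to -41 before the RefSeq start (build GRCm38.p6), 5′ to 3′ on the gene's own strand. Capitals mark matches to an ISRE core (GAAANNGAA) or a GAS core (TTCNNNGAA) on either strand, where neighbouring matches can share bases. The Oas3 stretch also overlaps an exon of the predicted gene Gm43069.
Ifit1 (chr19:34640729-34640848, plus strand): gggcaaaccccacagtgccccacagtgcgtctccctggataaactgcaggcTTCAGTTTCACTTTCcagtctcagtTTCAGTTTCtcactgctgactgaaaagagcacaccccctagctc
Ifit3 (chr19:34583369-34583488, plus strand): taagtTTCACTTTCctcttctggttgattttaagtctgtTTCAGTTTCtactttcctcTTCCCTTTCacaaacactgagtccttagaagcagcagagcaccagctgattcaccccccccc
Isg15 (chr4:156200859-156200978, minus strand): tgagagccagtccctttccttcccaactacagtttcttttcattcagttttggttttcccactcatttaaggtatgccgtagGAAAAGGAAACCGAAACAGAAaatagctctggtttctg
Oas3 (chr5:120777700-120777819, minus strand): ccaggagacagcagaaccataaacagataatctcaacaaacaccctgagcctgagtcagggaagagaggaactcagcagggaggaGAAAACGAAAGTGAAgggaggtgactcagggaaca
Rsad2 (chr12:26456493-26456612, minus strand): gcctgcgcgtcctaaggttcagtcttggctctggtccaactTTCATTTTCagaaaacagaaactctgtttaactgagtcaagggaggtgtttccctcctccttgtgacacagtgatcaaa
Cmpk2 (chr12:26469055-26469174, plus strand): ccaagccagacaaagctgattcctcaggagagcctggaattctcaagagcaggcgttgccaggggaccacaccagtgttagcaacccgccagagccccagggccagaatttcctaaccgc
Isg20 (chr7:78913264-78913383, plus strand): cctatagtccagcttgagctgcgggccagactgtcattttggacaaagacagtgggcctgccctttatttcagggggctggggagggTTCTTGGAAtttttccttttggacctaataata
Irf1 (chr11:53769854-53769973, plus strand): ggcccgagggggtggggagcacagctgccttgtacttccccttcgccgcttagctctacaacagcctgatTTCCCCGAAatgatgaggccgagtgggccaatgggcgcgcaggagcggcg

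Ifit1 and Ifit3 carried 3 ISRE cores each, all written on the other strand, and Isg15 carried 3 that share bases in 1 run from -78 to -58. Oas3 carried 2 such overlapping cores from -75 to -61, and Rsad2 carried 1 from -119 to -111. Cmpk2 held neither core. Isg20 and Irf1 had no ISRE core but 1 GAS core each, from -73 to -65 and from -90 to -82. The promoter table held 29 of the 39 genes. Over its full 300 bases (250 before to 50 after the start), 13 of these 29 (44.8%) held an ISRE core against 8.56% of all 32851 promoters, and 8 of 29 (27.6%) held a GAS core against 8.30%. An ISRE core was held by 5 of the 7 called genes and by 8 of the 22 others, and a GAS core by 1 of the 7 and 7 of the 22. The others were not called, though many of them had the called genes' signs of TG minus WT at the 3 numbers. The cores are matches of letters, not measured binding sites, and no link to the calls was tested.

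The 39 genes spanned a wide range of levels. Per kilobase of exon, Ifi27l2a, which encodes a small membrane protein, was highest at a mean of 1251 RPKM (CPM per kilobase of exon) over the 12 libraries. Ifi47 followed at 235, then Irf1 at 139, Bst2 at 132, Samhd1 at 122 and Sp100 at 113 RPKM. The ranges of Irf1, Bst2, Samhd1 and Sp100 over libraries overlapped one another, so their order does not hold beyond the spread. At the lower end, Mx2 stood at 1.89 RPKM, Ifi44 at 0.744 and Oasl2 at 0.261. In all, 28 of 39 genes had a mean of at least 10 RPKM. The spread over libraries differed between genes: the highest library was 1.23 times the lowest for Irf9 and 4.48 times for Ifi44, the extremes of the list, and over 2 times the lowest for 13 of 39 genes.

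**Figure D1:**
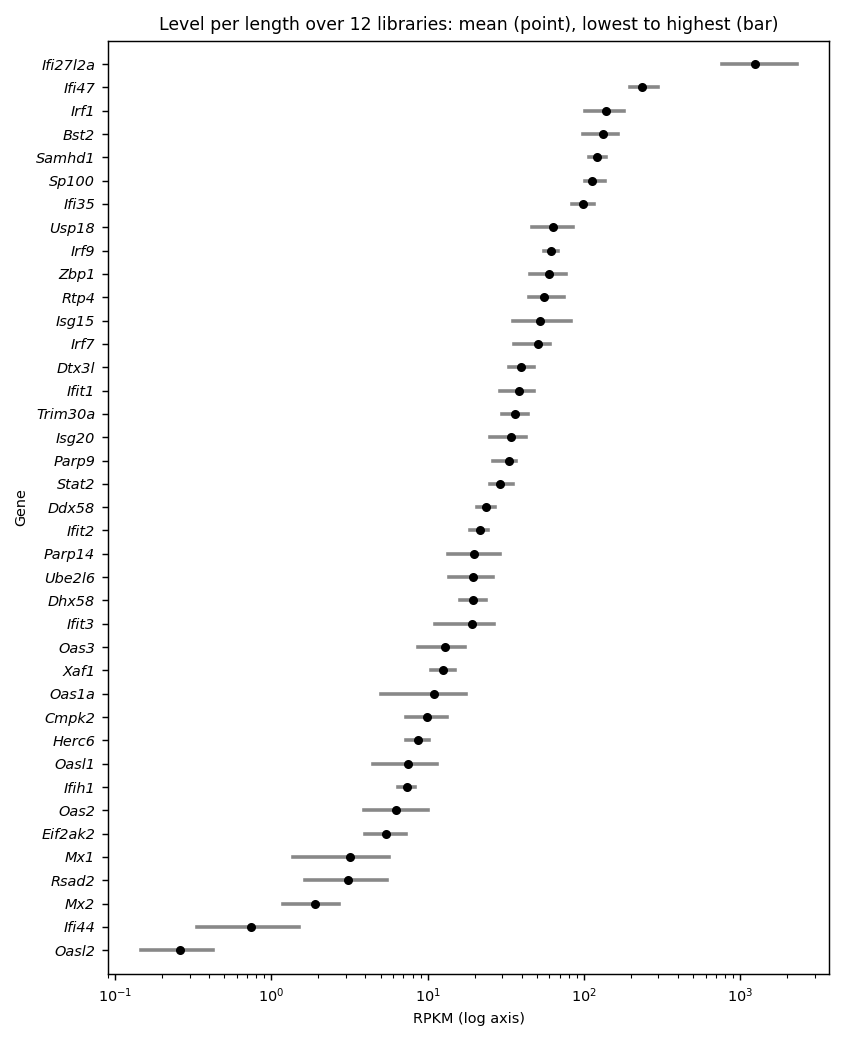
Level per length of the 39 interferon-stimulated genes, in RPKM on a log axis; points are means over 12 libraries and bars run from the lowest to the highest library. Ifi27l2a stands highest at a mean of 1251 RPKM and Oasl2 lowest at 0.261 RPKM.

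The first question was whether loss of Atg5 in CD11c-expressing cells goes with other levels of these genes in the sorted T cells. No member passed the threshold (edgeR quasi-likelihood test over 11766 genes, adjusted p below 0.05) in the High or the Low gate, and of all genes 0% passed in either gate. Unadjusted p-values below 0.05 were given to 0 of 39 members in High and 1 of 39 in Low. Point estimates leaned towards TG: 36 of 39 were above 0 in High with a median log2 difference of 0.10, and 33 of 39 in Low with a median of 0.12, where all tested genes had medians of 0.01 and 0.01. Without the 4 libraries numbered 1 the members' medians were 0.08 and 0.06. The same-numbered pairs did not all lean this way. In High the members' median was 0.17 at number 1, -0.16 at number 2 and 0.36 at number 3. In Low it was 0.27, -0.18 and 0.39. In a fit with a block for the replicate number, which pairs same-numbered libraries, again 0 of 39 members and 0% of genes passed in each gate, and 3 of 39 had an unadjusted p below 0.05 in each. DESeq2 also called 0 of 39 in each gate, with and without the block. The lean was not particular to the members. Of 18 tested IRG and GBP GTPases, the member Ifi47 included, 18 were above 0 in High and 15 in Low without the block. Their medians were 0.14 and 0.20. Of 54 tested interferon-stimulated genes outside the list, 39 were above 0 in each gate, with medians of 0.04 and 0.06. Some marker lists leaned the same way and others did not. With the block, 12 of 12 B cell markers were above 0 in each gate, with medians of 0.85 in High and 0.51 in Low, and 15 of 15 and 13 of 15 cell cycle markers were. Of 14 markers of activated or effector regulatory T cells, 12 were above 0 in High and 14 in Low. Of 8 tested myeloid or dendritic markers, 7 were above 0 in High and 5 in Low. Of 11 CD8 T or NK cell markers 6 were above 0 in each gate, and of 5 plasmacytoid dendritic markers 2 were in High and 4 in Low. The plasmacytoid list includes Bst2, itself a member, which was above 0 in each gate. The part of other cells or of activated cells in the members' lean was not tested. In sorted bulk RNA, a change in the share of cells cannot be told apart from a change in RNA per cell.

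**Figure D2:**
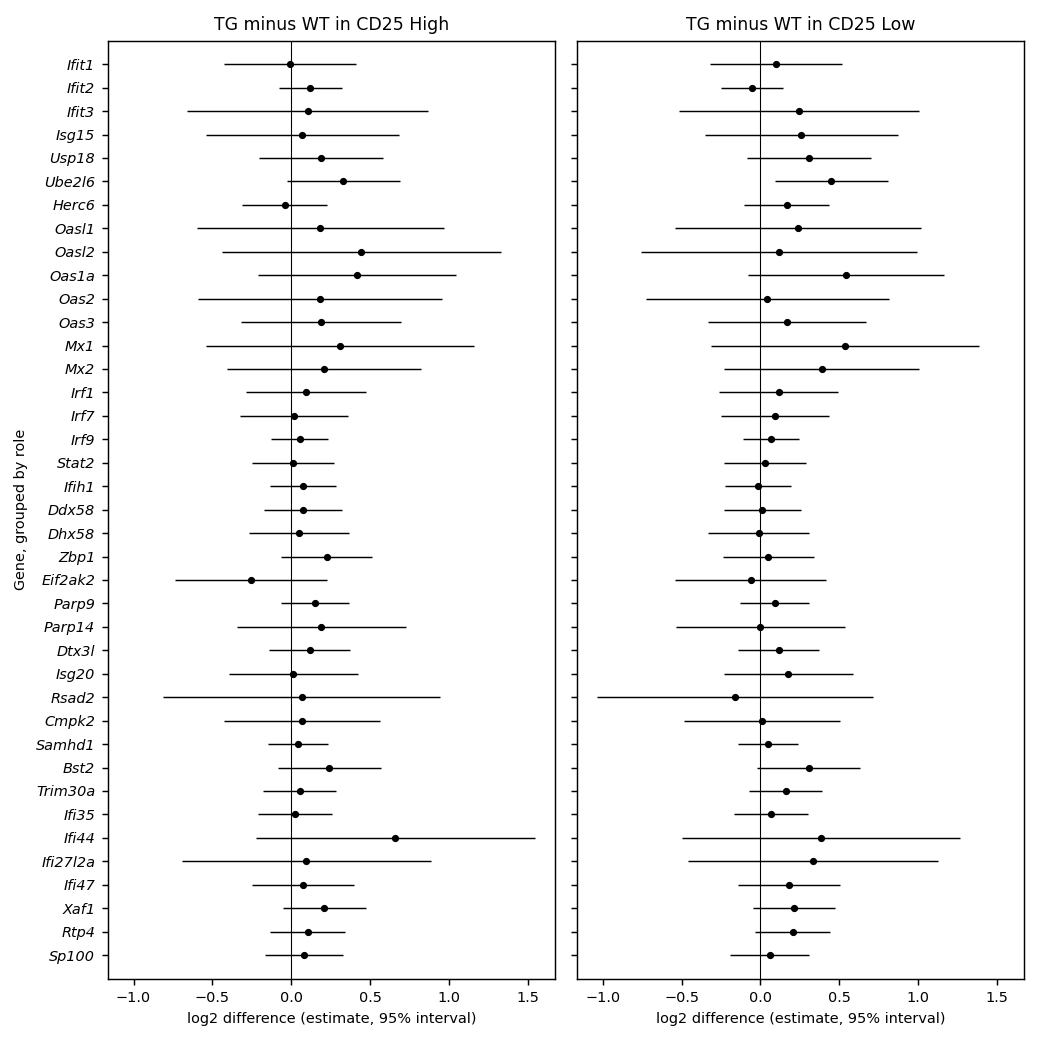
Genotype difference of each of the 39 genes in the CD25 High and CD25 Low gates, as log2 TG minus WT with its 95% interval, genes grouped by role. Most points lie right of 0 and nearly all intervals cross it; Ube2l6 in the Low gate is the exception at 0.45 (95% interval 0.09 to 0.81), and it did not pass after adjustment.

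Ube2l6, which encodes the conjugating enzyme that loads the ubiquitin-like protein ISG15 onto targets, had the smallest p in both gates and did not pass. At numbers 1, 2 and 3, the WT High libraries gave 33.2, 42.4 and 29.4 CPM of Ube2l6, the TG High libraries 39.1, 52.5 and 41.0, the WT Low libraries 28.5, 41.9 and 27.4 and the TG Low libraries 45.6, 43.6 and 44.5. Each of the 6 same-numbered pairs was higher in TG, and in the Low gate the genotypes did not overlap, as was so for 1 of 39 members and 3.3% of all tested genes. The log2 difference was 0.33 (SE 0.18, adjusted p = 1.00) in High and 0.45 (SE 0.18, adjusted p = 1.00) in Low, and with the block 0.48 (SE 0.12, adjusted p = 0.991) in Low.

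In the High gate the next smallest p-values belonged to Xaf1 at 0.21 (SE 0.13, adjusted p = 1.00) and to Zbp1 at 0.23 (SE 0.15, adjusted p = 1.00), neither of which passed. Zbp1 encodes a sensor of Z-form nucleic acid. Across numbers 1 to 3, Zbp1 had 196, 197 and 186 CPM in WT High and 205, 271 and 159 in WT Low, against 226, 216 and 235 in TG High and 212, 226 and 219.7 in TG Low. The High groups did not overlap for Zbp1, nor did they for Parp14, where TG ranged from 171 to 215 CPM and WT from 165 to 168 CPM. Groups that did not overlap were seen for 2 of 39 members in High and for 4.27% of all tested genes, so the members' count is no result about them. In the Low gate Bst2, which encodes tetherin, a protein that holds budding virus at the cell surface, followed Ube2l6 at 0.31 (SE 0.17, adjusted p = 1.00), and Oas1a came next at 0.54 (SE 0.32, adjusted p = 1.00).

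The second question was whether CD25 High and Low cells differ. The gate itself was visible, since Il2ra, which encodes CD25, ran from 1072 to 1309 CPM in High and from 481 to 734 CPM in Low. Among the members 0 of 39 passed in WT, where 0.0510% of genes passed, and 0 of 39 in TG, where 0.00850% passed. With the block, 1.63% of genes passed in WT and 1.68% in TG, and still 0 of 39 members did. Without the block, 0 of 39 members had an unadjusted p below 0.05 in either genotype. Medians of the members were -0.03 in WT, with 15 above 0, and -0.03 in TG, with 12 above 0. In WT the smallest p belonged to Ifit2 at -0.19 (SE 0.10, adjusted p = 1.00), followed by Rtp4 at -0.13 (SE 0.12, adjusted p = 1.00) and Herc6 at 0.15 (SE 0.14, adjusted p = 1.00). Ifit2, an RNA-binding IFIT protein, stood at 76.6, 80.4 and 80.0 CPM in WT High and 85.0, 95.9 and 89.3 CPM in WT Low, with no overlap, as was so for 1 of 39 members and 8.86% of all tested genes. In TG they belonged to Rtp4 at -0.24 (SE 0.12, adjusted p = 0.999), Irf7 at -0.25 (SE 0.17, adjusted p = 0.999) and Bst2 at -0.22 (SE 0.17, adjusted p = 0.999), and none passed. The genotype difference was also compared between the gates: 0 of 39 members and 0% of genes passed, with or without the block, and the smallest p belonged to Ifit2 at 0.17 (SE 0.14, adjusted p = 1.00), Herc6 at -0.21 (SE 0.19, adjusted p = 1.00) and Zbp1 at 0.17 (SE 0.21, adjusted p = 1.00).

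The libraries of a group were far from equal, and the members varied within groups in a shared way. Number 2 held the highest level of 34 of 39 members in both WT gates, against 17.7% of all tested genes. In TG, number 2 was highest in both gates for 7 of 39 members, against 16.5% of genes. The same number was highest in WT High and WT Low for 37 of 39 members, in TG High and TG Low for 24 of 39, in WT High and TG High for 13 of 39, and in WT Low and TG Low for 12 of 39. Over all genes these shares were 57.8%, 55.1%, 52.9% and 59.2%, so in TG the members' share of 61.5% lay near that of all genes.

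Across the 39 genes, deviations of library 2 from its group mean correlated at r = 0.74 between WT High and WT Low and at r = 0.72 between TG High and TG Low, but at 0.06 between WT High and TG High and 0.15 between WT Low and TG Low. Over the 11766 tested genes the same values were 0.47, 0.39, 0.41 and 0.50. At numbers 1 and 3 the members' r between the gates lay below that of all genes. At number 1 their r was 0.66 in WT and 0.71 in TG between the gates, and 0.40 in High and 0.77 in Low between the genotypes, against 0.80, 0.79, 0.77 and 0.83 over all genes. At number 3 it was 0.54 and 0.45 between the gates and -0.18 and 0.27 between the genotypes, against 0.70, 0.69, 0.68 and 0.74 over all genes. Genes are not independent replicates, and paired libraries share any handling of their cells, so these values are a description.

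**Figure D3:**
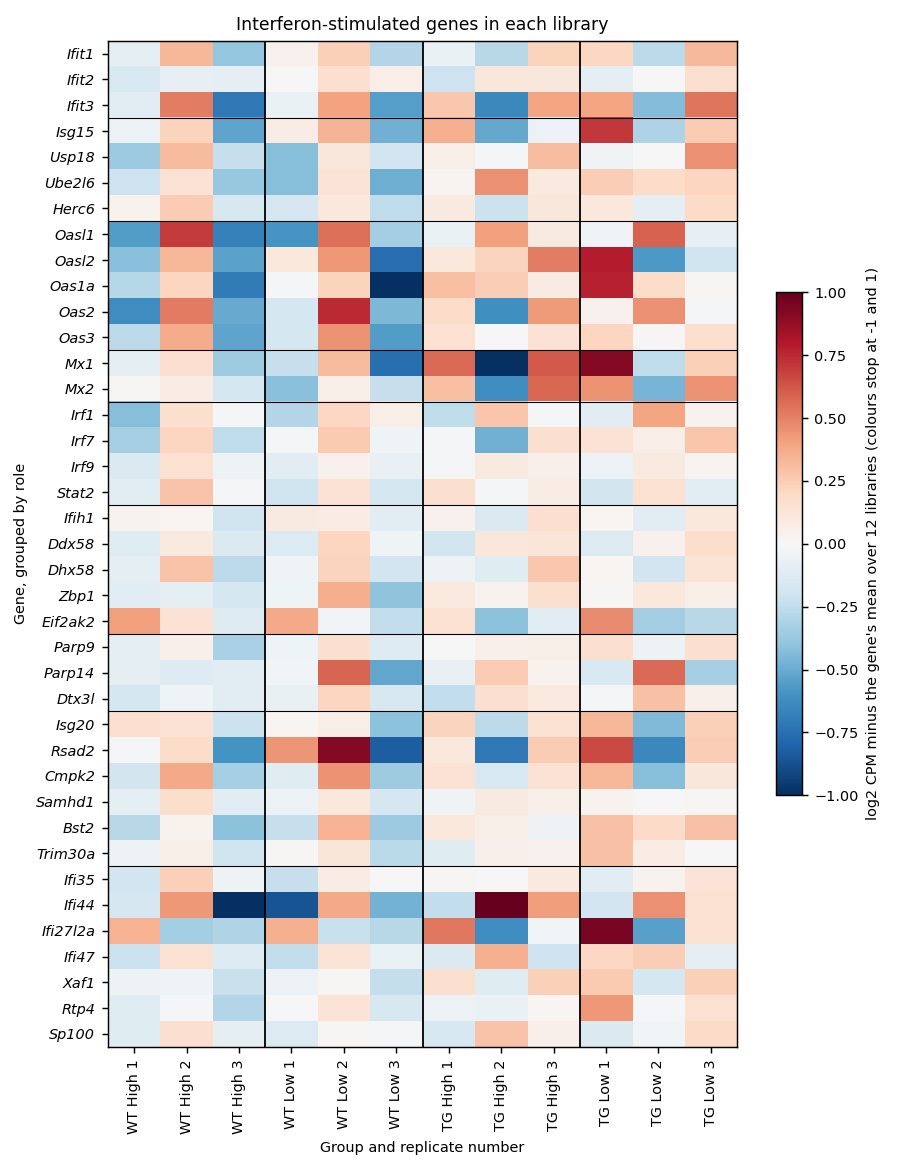
Each gene's log2 CPM minus its mean over 12 libraries, with genes in rows grouped by role and libraries in columns by group and replicate number; red is above the mean and blue below, and colours stop at -1 and 1. Columns WT High 2 and WT Low 2 are mostly red, and TG High 2 and TG Low 2 are blue for Ifit3, Isg15, Mx1, Rsad2 and Ifi27l2a.

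This pattern was tested after it had been seen in the data, with a model that gives each genotype and number its own level and asks by edgeR's quasi-likelihood F test whether TG minus WT differs between the numbers. It called 8 of 39 members (20.5%), where 35 of 11766 genes (0.297%) were called. Unadjusted p-values below 0.05 were given to 59.0% of the members and 8.24% of the genes. At number 1 the members' median TG minus WT was 0.18 on the log2 scale, at number 2 it was -0.14, and at number 3 it was 0.39. Of the 39, 28 (71.8%) were higher in TG at numbers 1 and 3 and lower at number 2, a pattern that 14.1% of all genes had. Within this test each genotype and number had only its High and Low library. Its SEs and p-values therefore hold only the spread left between the High and Low libraries, not the spread between numbers. If the High and Low libraries were sorted from the same mice, the test compares sources of cells, not genotypes.

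The call held to different degrees. Ifit3, Isg15 and Oas3 were called under each of 15 alternatives run. Without WT High 2 or without WT Low 2, 4 members were called, where 25 and 23 of all genes were called. Without WT High 1, TG High 3, WT Low 1 or WT Low 3, 5 members were called. Those fits called 26, 24, 28 and 19 genes in all, in that order. DESeq2 called 14 of 39, the same 8 together with Herc6, Oas2, Mx1, Irf7, Dhx58 and Ifi27l2a, where it called 1.10% of the genes it gave a value. Of the marker lists, the B cell gene Ms4a1 and the myeloid gene Lyz2 were also among the 35, with TG highest relative to WT at other numbers: TG minus WT was 0.65, 1.68 and -0.89 at numbers 1, 2 and 3 for Ms4a1 and 2.74, -0.65 and -1.67 for Lyz2. Summed over the 12 B cell markers, number 2 held 518 and 597 CPM in WT High and Low and 540.2 and 605 CPM in TG High and Low. The 14 myeloid or dendritic markers summed to 13.1 and 18.2 CPM in those WT libraries and 11.2 and 10.00 CPM in those TG libraries. The 14 markers of activated or effector regulatory T cells varied as many members did: 8 of 14 (57.1%) had the members' signs, 50% had an unadjusted p below 0.05, and their medians were 0.45, -0.10 and 0.25 at numbers 1, 2 and 3, while 0 of 14 were called. The part of other cells or of activated cells in the members' pattern was not tested.

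**Figure D4:**
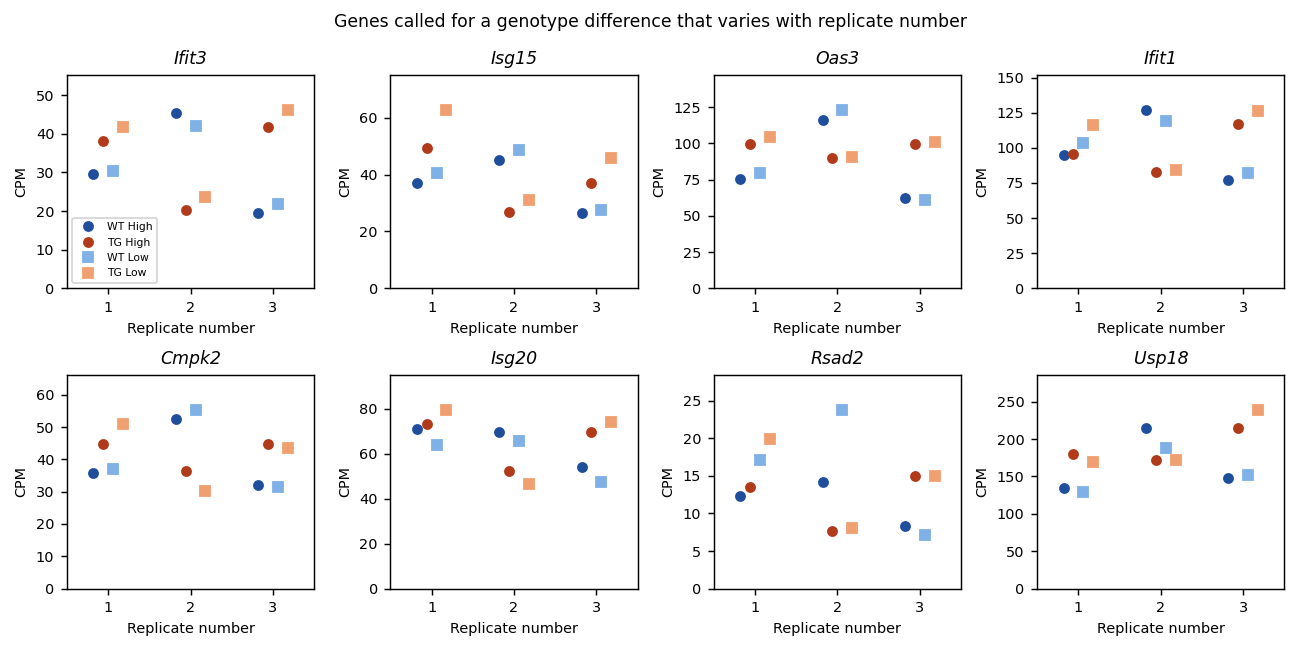
CPM of the 8 genes called for a genotype difference that varies with replicate number; circles are CD25 High and squares CD25 Low, blue WT and orange to red TG, with 1 point per library. For Ifit3 both WT libraries at number 2, at 45.3 and 42.1 CPM, lie above both TG libraries, at 20.4 and 23.5 CPM, and at number 3 the order is the opposite.

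The IFIT family, proteins that bind viral RNA, is encoded in a cluster on chromosome 19, and 2 of its 3 members were called. At numbers 1, 2 and 3, Ifit3 stood at 29.6, 45.3 and 19.4 CPM in WT High, 38.2, 20.4 and 41.8 in TG High, 30.3, 42.1 and 21.7 in WT Low and 41.8, 23.5 and 46.1 in TG Low. TG was above WT in both gates at numbers 1 and 3 and below it in both at number 2. TG minus WT was 0.42 (SE 0.11) at number 1, -0.99 (SE 0.11) at number 2 and 1.10 (SE 0.11) at number 3 (adjusted p = 0.000172). Ifit3 has a near-identical neighbour, Ifit3b, with which reads may be split, and Ifit3b was called as well (adjusted p = 0.00979).

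Ifit1 (chr19:34640871-34650009 in GRCm38) showed a flatter form of the same order. At numbers 1 to 3, the WT High libraries gave 94.8, 127 and 77.1 CPM of Ifit1, the TG High libraries 96.0, 83.1 and 117, the WT Low libraries 104, 119 and 82.2 and the TG Low libraries 116, 84.0 and 126. The genotypes lay close together at number 1, WT lay higher at number 2 and TG at number 3. The difference was 0.09 (SE 0.10) at number 1, -0.56 (SE 0.10) at number 2 and 0.61 (SE 0.10) at number 3 (adjusted p = 0.00646). Over each whole gate, where the numbers cancel, Ifit1 differed by -0.01 (SE 0.21, adjusted p = 1.00) in High and 0.10 (SE 0.21, adjusted p = 1.00) in Low. Ifit2 kept to 73.8 to 95.9 CPM in all libraries and was not called (adjusted p = 0.799).

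Of the 4 genes of the ISG15 system, Isg15 and Usp18 were called. ISG15 is a ubiquitin-like protein that is attached to newly made proteins. At numbers 1, 2 and 3, Isg15 had 36.9, 45.0 and 26.6 CPM in WT High and 40.5, 48.7 and 27.5 in WT Low, against 49.3, 26.9 and 36.9 in TG High and 62.7, 31.0 and 45.9 in TG Low. Again TG was higher at numbers 1 and 3 and lower at number 2, in each gate. The differences were 0.52 (SE 0.10) at number 1, -0.70 (SE 0.10) at number 2 and 0.60 (SE 0.10) at number 3 (adjusted p = 0.00151), while over whole gates Isg15 differed by 0.07 (SE 0.31, adjusted p = 1.00) in High and 0.26 (SE 0.31, adjusted p = 1.00) in Low.

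Usp18 removes ISG15 and restrains the type I interferon receptor. By number, Usp18 stood at 135, 215 and 147 CPM in WT High, 181, 172 and 214 in TG High, 129, 188 and 152 in WT Low and 169, 172 and 238 in TG Low. TG was higher at numbers 1 and 3 and lower, by less, at number 2. The differences were 0.41 (SE 0.09) at number 1, -0.23 (SE 0.09) at number 2 and 0.60 (SE 0.09) at number 3 (adjusted p = 0.0479). The call was lost when any 1 of the 12 libraries was left out, where adjusted p ran from 0.0509 to 0.319. Whole-gate differences of Usp18 were 0.19 (SE 0.20, adjusted p = 1.00) and 0.31 (SE 0.20, adjusted p = 1.00) in High and Low. Herc6, the mouse ligase for ISG15, followed the order without passing (adjusted p = 0.0737), and Ube2l6, higher in TG at each number, did not pass (adjusted p = 0.686).

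The 5 OAS genes, encoded on chromosome 5, make or resemble enzymes that sense double-stranded RNA and activate RNase L. Oas3 was called. The point estimates of all 5 were above 0 at numbers 1 and 3 and below 0 at number 2, but that of Oas1a at number 2 was -0.01 (SE 0.18). Across numbers, the WT High libraries gave 75.1, 116 and 62.5 CPM of Oas3, the TG High libraries 99.9, 89.8 and 99.4, the WT Low libraries 79.4, 123 and 61.0 and the TG Low libraries 104, 90.7 and 101. The 3 WT numbers were widely spread and the 3 TG numbers close together. TG minus WT was 0.40 (SE 0.09) at number 1, -0.41 (SE 0.09) at number 2 and 0.70 (SE 0.09) at number 3 (adjusted p = 0.00306). Oas1a, which lies among near-identical copies, Oas2, Oasl1 and Oasl2 did not pass, with adjusted p from 0.352 to 0.681. Oasl2 was the lowest member. By number, Oasl2 had 1.18, 1.98 and 1.09 CPM in WT High and 1.69, 2.13 and 0.929 in WT Low, against 1.70, 1.84 and 2.25 in TG High and 2.71, 1.06 and 1.38 in TG Low. At 377 counts over all 12 libraries its differences were imprecise: 0.44 (95% interval -0.44 to 1.33) in High and 0.12 (95% interval -0.76 to 0.99) in Low.

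Mx1 and Mx2 encode antiviral GTPases, but the Mx1 gene of C57BL/6 mice is known to be defective and Mx2 is annotated as a polymorphic pseudogene. Both followed the same order without being called: TG minus WT of Mx1 was 0.91 (SE 0.23) at number 1, -0.81 (SE 0.25) at number 2 and 1.00 (SE 0.24) at number 3 (adjusted p = 0.0737). Mx1 ranged from 5.20 CPM in TG High 2 to 21.3 CPM in TG Low 1.

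Among the other effectors, the antiviral enzyme gene Rsad2 (viperin, chr12:26442746-26456452), its neighbour Cmpk2 (a nucleotide kinase, chr12:26469204-26479837) and the RNA exonuclease gene Isg20 were called. By number, Rsad2 stood at 12.4, 14.2 and 8.32 CPM in WT High, 13.5, 7.65 and 15.0 in TG High, 17.1, 23.7 and 7.09 in WT Low and 19.9, 8.03 and 14.9 in TG Low. Number 2 was the highest WT library and the lowest TG library in each gate, so WT exceeded TG there and fell short of it at the other numbers. The differences were 0.18 (SE 0.22) at number 1, -1.26 (SE 0.24) at number 2 and 0.94 (SE 0.22) at number 3 (adjusted p = 0.0312). Cmpk2 differed by 0.39 (SE 0.12) at number 1, -0.71 (SE 0.12) at number 2 and 0.47 (SE 0.12) at number 3 (adjusted p = 0.00979). By number, Cmpk2 had 35.7, 52.6 and 32.1 CPM in WT High and 37.2, 55.1 and 31.6 in WT Low, against 44.7, 36.4 and 44.8 in TG High and 51.0, 30.1 and 43.7 in TG Low. For Cmpk2, WT exceeded TG at number 2 and TG exceeded WT at the other numbers, in both gates. In CPM by number, Isg20 stood at 70.8, 69.5 and 54.2 CPM in WT High, 73.2, 52.3 and 69.8 in TG High, 63.8, 65.5 and 47.3 in WT Low and 79.2, 46.3 and 74.2 in TG Low, with the same order in both gates. Isg20 differed by 0.18 (SE 0.10) at number 1, -0.46 (SE 0.10) at number 2 and 0.51 (SE 0.10) at number 3 (adjusted p = 0.0276). Left-out libraries took adjusted p to at most 0.102 for Cmpk2, 0.189 for Rsad2 and 0.189 for Isg20.

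Bst2, Samhd1 and Trim30a were not called. Bst2 by number read as follows: the WT High libraries gave 97.2, 121 and 88.7 CPM of Bst2, the TG High libraries 126, 122 and 114, the WT Low libraries 100.4, 150.0 and 91.4 and the TG Low libraries 144, 134 and 144. Its TG High libraries all lay below its TG Low libraries, and such groups without overlap were seen for 1 of 39 members and 8.07% of all tested genes. WT was lower than TG at numbers 1 and 3. The differences at numbers 1, 2 and 3 were 0.45, -0.08 and 0.51 (adjusted p = 0.201). Samhd1, which destroys the building blocks of DNA, was among the steadiest members, with a ratio of 1.27 between its highest and lowest library.

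**Figure D5:**
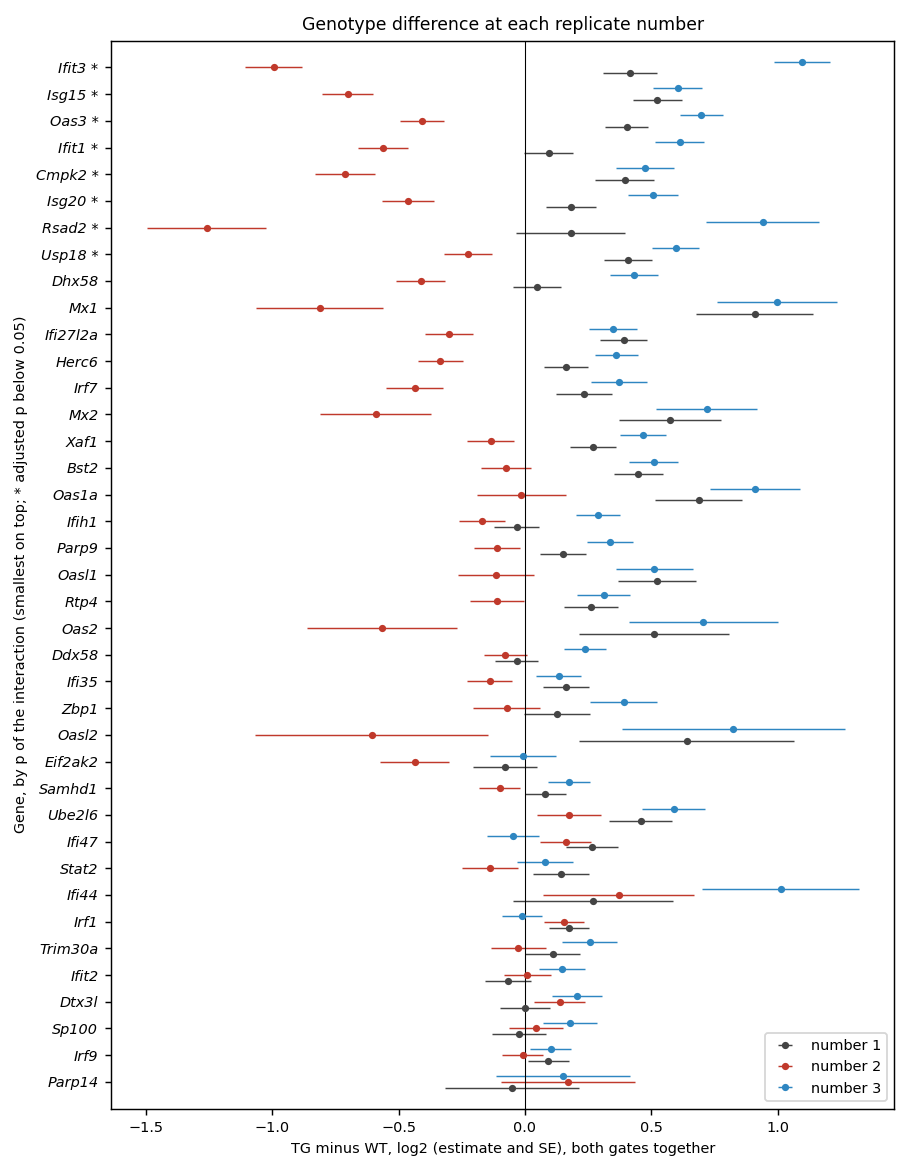
TG minus WT of each gene on the log2 scale at replicate numbers 1 (grey), 2 (red) and 3 (blue), with its SE, both gates together; genes are ordered by the p of the interaction and asterisks mark adjusted p below 0.05. In the upper rows the red point lies left of 0 and the others right of it; Ifit3 runs from -0.99 at number 2 to 1.10 at number 3, and Parp14 and Irf9 at the bottom do not separate.

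The 4 transcription factors were not called. Irf7 amplifies type I interferon responses. By number, Irf7 stood at 150.1, 219 and 159 CPM in WT High, 186, 135 and 211 in TG High, 187, 226 and 183 in WT Low and 209, 198 and 229 in TG Low. The order was that of Isg15, with differences of 0.23, -0.44 and 0.37 (adjusted p = 0.106), and over whole gates Irf7 differed by 0.02 (SE 0.17, adjusted p = 1.00) in High and 0.09 (SE 0.17, adjusted p = 1.00) in Low. Stat2, a subunit of the complex that binds the ISRE, varied less. At numbers 1, 2 and 3, Stat2 had 159.7, 209 and 169 CPM in WT High and 149, 189.6 and 152 in WT Low, against 191, 169 and 180.1 in TG High and 151, 190.0 and 159 in TG Low. WT number 2 was the top WT library in both gates, while the TG libraries had no shared order. Stat2 differed over whole gates by 0.01 (SE 0.13, adjusted p = 1.00) and 0.03 (SE 0.13, adjusted p = 1.00) in High and Low, and its interaction had an adjusted p of 0.77. Irf9 ranged from 298 to 366 CPM.

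Irf1, a factor of the interferon gamma response, had another order. For numbers 1, 2 and 3, the WT High libraries gave 405, 607 and 536 CPM of Irf1, the TG High libraries 457, 659 and 536, the WT Low libraries 445, 627 and 565 and the TG Low libraries 502, 716 and 557. Number 2 was highest and number 1 lowest in all 4 groups, so both genotypes shared 1 order. TG minus WT was 0.17, 0.16 and -0.01 at numbers 1, 2 and 3 (adjusted p = 0.778). Ifi47, Oasl1, Dtx3l, Irf9 and Ifi44 shared number 2 as the highest in all 4 groups, which makes 6 of 39 with Irf1. Of all 11766 tested genes, 793 had number 2 highest in all 4 groups. A list of 19 IRG and GBP GTPases, which includes the member Ifi47, also peaked at number 2 when summed. The sums there were 3687 and 3498 CPM in WT High and Low and 4205 and 3948 CPM in TG High and Low. Each was the highest sum of its group. Of the 18 genes of this list that were tested, 0 were called for the interaction.

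The 5 sensors of nucleic acids were not called for the interaction. Dhx58, which encodes LGP2, came nearest (adjusted p = 0.0521). Ifih1 (MDA5), Ddx58 (RIG-I), Zbp1 and Eif2ak2 (the kinase PKR) had adjusted p from 0.382 to 0.681. The PARP9 group, whose products Parp9 and Dtx3l form a complex, had adjusted p of 0.458 for Parp9, 0.966 for Parp14 and 0.832 for Dtx3l. Exons of Parp9 and Dtx3l overlap on opposite strands, and these libraries do not record strand, so their reads cannot be fully told apart. Of the 7 less known genes 0 were called, with Ifi27l2a nearest (adjusted p = 0.0737).

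Number 1 was also set against the mean of numbers 2 and 3 over all groups, since those 4 libraries stood apart. With the block, 8 of 39 members were called, 2 higher and 6 lower, where 27.5% of all genes were called, so the members' share of 20.5% lay below that of all genes. Ifi27l2a was higher. By number, Ifi27l2a stood at 700.0, 434 and 447 CPM in WT High, 793, 357 and 539 in TG High, 704, 470.2 and 454 in WT Low and 1063, 377 and 612 in TG Low. Number 1 was the highest in all 4 groups and the log2 difference was 0.81 (SE 0.11, adjusted p = 0.000381). Whole-gate genotype differences of Ifi27l2a were 0.10 (SE 0.40, adjusted p = 1.00) in High and 0.33 (SE 0.40, adjusted p = 1.00) in Low.

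Eif2ak2 was higher at number 1 by 0.52 (SE 0.09, adjusted p = 0.000451) and Irf1 lower at -0.41 (SE 0.05, adjusted p = 3.35e-05). Oasl1, Ddx58, Sp100, Ifi35 and Dtx3l were lower by smaller amounts, from -0.48 to -0.19. Without WT Low 1 only 3 members were called, and without TG Low 1 only 5 were. Calls over all genes were not counted in these 2 fits, so the members' losses cannot be set against those of all genes. All 12 of 12 B cell markers and 15 of 15 cell cycle markers were higher at number 1, with median log2 differences of 3.46 and 3.34, and their part in the members' differences was not tested.

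Above these genes in the pathway, reads of interferon genes were nearly absent. Of 16 ligand genes in the table, 12 had no count in any library, Ifnb1 and Ifna1 among them, which allows up to 3 counts per library or 0.125 to 0.443 CPM. Only Ifng passed the filter, at 0.196 to 3.43 CPM and 238 counts over the 12 libraries. With the block, Ifng was higher at number 1 than at numbers 2 and 3 by a log2 difference of 2.28 (edgeR's quasi-likelihood test, adjusted p = 2.28e-05). In that comparison 27.5% of all genes were called. Of 10 tested genes for receptors and signalling 0 were called in the 5 comparisons of group or for the interaction. Of 8 tested inhibitors, only Usp18, itself a member, was called for the interaction, and of 54 tested interferon-stimulated genes outside the list only Ifit3b was, which is 1.85%. Many of these 54 shared the members' signs, however: 22 of 54 (40.7%) were higher in TG at numbers 1 and 3 and lower at number 2, 22.2% had an unadjusted p below 0.05, and their medians were 0.09, -0.06 and 0.13.

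With each genotype and number as its own block, the gates were compared once more, since their libraries then match most closely. This block was chosen after the data had been seen. It called 1.68% of genes in WT and 1.72% in TG, and 0 of 39 members in either. Isg15 in TG had the smallest adjusted p at 0.109, with a High minus Low log2 difference of -0.30 (SE 0.08) and the High library lower at each of the 3 numbers.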

How the data were processed

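RNA of 12 sorted-cell libraries was converted with a SMARTer Ultra Low kit and Nextera XT, which keep no strand, per the labels' protocols. The deposited values were whole-number read counts per gene. CASAVA 1.8.2, STAR 2.4, featureCounts 1.4.6 and GRCm38 are named in the submitters' processing notes, without their settings. Identifiers were paired with symbols for 21628 of 21839 genes, and the 211 others held 0.038% of counts. Genes were kept by filterByExpr (minimum count 10), which left 11766 genes with 99.96% of counts. The counts were scaled by TMM and tested with edgeR 4.0.16 (R 4.3.3, limma 3.58.1), robust quasi-likelihood, over all 4 groups, with Benjamini-Hochberg adjustment at 0.05; the test was tested on simulated data. Intervals are 1.96 SE.

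Library totals ran from 6767828 to 23942479, and the errors given reflect the spread between libraries. Those of the genotype by number test hold only the spread left between the High and Low libraries of a genotype and number. Floors for a count of 0 cover counting error only. Near-identical copies (Ifit3, Oas1a, Ifi27l2a, Mx1, Mx2, Trim30a, Sp100) may share reads with relatives. Exons of 15 members overlap those of another annotated gene, 6 of them a gene in the table.

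The members and all lists were chosen with earlier results of these data known. Named were every member past the threshold (at most 12 by p), otherwise the 3 smallest p-values, and always Ifit1, Isg15, Irf7, Stat2, Usp18, Ifi27l2a, Oasl2 and Bst2. A pathway gene outside the list that was also to be named is not reported here. Same-numbered libraries deviated from their group means together (r from 0.34 to 0.83 in 18 pairs; -0.69 to 0.20 in 36 pairs of unlike number), so the numbers pair the libraries. Alternatives were the replicate block, DESeq2 1.42.0, RLE scaling, no filter, only the groups compared, no number 1 libraries, and each library left out. The genotype by number test was added after seeing the data. Promoters come from RefSeq (GRCm38.p6).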

Additional observations from a re-analysis of the deposited data

Results flagged for a closer look

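Herc6, the mouse ligase for ISG15, had opposite gate differences in the genotypes. High minus Low was 0.20, 0.14 and 0.09 on the log2 scale in the WT pairs 1, 2 and 3, all above 0, and -0.02, -0.11 and -0.08 in the TG pairs, all below 0. The mean of the WT pairs exceeded that of the TG pairs by 0.21. The difference of the genotype effects between gates did not pass in edgeR's quasi-likelihood test (log2 -0.21, SE 0.19, adjusted p = 1.00). Groups of 3 libraries are too small for a check of single outlying libraries.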

How the results depend on the processing

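All 161 alternative counts of members called in the 5 comparisons of groups were 0, the replicate block included, and all 64 alternative medians of the genotype comparisons were above 0, from 0.02 to 0.30. These alternatives did not take single pairs of libraries. In the pairs numbered 2 the members' median of TG minus WT was -0.16 in High and -0.18 in Low. The replicate block changed no call among the members.

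With 1 library left out at a time, the members' median of High minus Low in WT ranged from -0.15 to 0.11 (with the block -0.14 to 0.11) and that in TG with the block from -0.17 to 0.065. The median difference of the genotype effects ranged from -0.18 to 0.11 (with the block -0.14 to 0.080), and that of number 1 against the others from -0.10 to 0.028, with 3 to 12 members called. Calls over all genes were not counted in those fits of number 1. The interaction of genotype and number called 4 to 8 members, where it called 19 to 55 genes in all. DESeq2 called 14 members and 1.10% of the genes it gave a value. Without the filter 13 members were called, and calls over all genes were not counted there. The causes were not tested.

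Signs of single genotype differences turned, most of them near 0, but in Low also those of Ifi27l2a (0.33) and Isg15 (0.26). In High, Ifit1 was 0.0053 with the block and 0.00018 in DESeq2 with the block. Without the number 1 libraries, alone and with the block, Isg15 was -0.15 and -0.11, Irf7 -0.12 and -0.12, and Stat2 -0.11 and -0.10 in High, and Oasl2 was -0.32 and -0.26 in Low; Ifi27l2a was -0.00473 in High with the block. Leaving out single libraries gave in High -0.16 to 0.21 for Ifit1, -0.17 to 0.26 for Isg15, -0.13 to 0.21 for Irf7, -0.069 to 0.13 for Stat2 and -0.23 to 0.35 for Ifi27l2a. In Low it gave -0.032 to 0.26 for Ifit1, -0.015 to 0.48 for Isg15, -0.077 to 0.15 for Stat2, -0.13 to 0.63 for Ifi27l2a and -0.37 to 0.39 for Oasl2. The difference between gates of Zbp1 ranged from -0.051 to 0.34.

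With 3 libraries a group, small differences could not be resolved. SEs followed the spread between libraries: that of Ifi27l2a in High was 0.40 and that of Oasl2, at 377 counts, 0.45.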

Other observations

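Some interferon-stimulated genes outside the list or upstream in the pathway differed between the gates in the fit with the replicate block (edgeR's quasi-likelihood test), and these calls rest on the block. In each genotype 2 of 54 tested genes outside the list and 1 of 12 tested genes of interferon induction were called. Of all genes 1.63% were called in WT and 1.68% in TG. Ly6a, which encodes the surface protein Sca-1, was lower in CD25 High than in CD25 Low cells, by a log2 difference of -0.74 (SE 0.12, adjusted p = 0.00518) in WT and -0.67 (SE 0.12, adjusted p = 0.0114) in TG. Slfn1, a Schlafen gene linked to T cell quiescence, was lower as well, at -0.31 (SE 0.07, adjusted p = 0.0431) in WT and -0.34 (SE 0.07, adjusted p = 0.0231) in TG. Tlr7, which encodes a sensor of single-stranded RNA, was higher in CD25 High cells, at 0.49 (SE 0.11, adjusted p = 0.0229) and 0.50 (SE 0.11, adjusted p = 0.0252). Without the block edgeR called none of the 3, with adjusted p in WT and TG of 1.00 and 0.95 for Ly6a, 1.00 and 0.83 for Slfn1, and 0.461 and 0.356 for Tlr7. With a block for genotype and number, Slfn1 in WT did not pass either (adjusted p = 0.0582). Among 18 tested IRG and GBP GTPases, the replicate block gave 1 call in each genotype, higher in CD25 High (adjusted p = 0.00133 in WT and 0.00502 in TG). Without a block 0 of the 18 were called. With the block for genotype and number the 1 called was Gbp3. Its difference was 0.65 (SE 0.09, adjusted p = 0.00275) in WT and 0.57 (SE 0.09, adjusted p = 0.00815) in TG.

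Of the 54 tested interferon-stimulated genes outside the list, 12 differed between number 1 and the other numbers, 3 higher and 9 lower, a share of 22.2% that lies below the 27.5% of all genes. The higher ones were the chemokine gene Cxcl10 at 2.14 (SE 0.33, adjusted p = 0.00021), Ifitm2 at 1.23 (SE 0.20, adjusted p = 0.000239) and Ifi30, a thiol reductase of antigen processing, at 0.70 (SE 0.09, adjusted p = 1.80e-05). In the same libraries 5 of 8 tested myeloid or dendritic markers were higher, with a median of 2.02, and the part of such cells in these differences was not tested.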
